A study of Mus musculus with 8 samples.

Results

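The transcription factors described here were grouped under the resting, recirculating state of T cells. They are the forkhead factors Foxo1, Foxo3 and Foxp1, the Krüppel-like factors Klf2, Klf3 and Klf6, and the factors Bach2, Tcf7, Lef1 and Satb1. Not all are restricted to that state: Klf6 is also an early response gene of activated cells, and Satb1 acts in thymocytes. The 10 genes were taken as a named list. A probe set annotated to exactly 1 of these symbols was found for 9 of them, out of 19937 genes measured in this way. Tcf7, which encodes TCF1, had no such probe set and was not analysed here. The other 9 genes had 1 probe set each. They lie on chromosomes 3 (Foxo1 and Lef1), 4 (Bach2), 5 (Klf3), 6 (Foxp1), 8 (Klf2), 10 (Foxo3), 13 (Klf6) and 17 (Satb1).

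RNA came from sorted CD4+ TCRβ+ CD25+ cells, the surface phenotype of regulatory T cells (Tregs), taken from the spleen and peripheral lymph nodes. The IIKO group comprised 4 arrays of Tregs from CD3ε-/- recipients given IIKO marrow, and the labels call these cells deprived of peripheral MHC class II contact through their T cell receptor (TCR). The WT group comprised 4 arrays of Tregs from CD3ε-/- recipients given WT marrow, in which that contact was kept. Recipients lack CD3ε, a part of the TCR complex, and so form no T cells of their own. All were lethally irradiated and sampled 28 days after reconstitution, and the labels give C57BL/6 mice of 6 to 8 weeks. The labels call the arrays of a group biological replicates without giving the number of mice per array. P-values therefore measure the spread between these samples, and precision is limited by how few arrays there are. Any other effect of the donor marrow cannot be told apart from the loss of TCR contact.

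Foxo1 and Foxo3 are held in the nucleus when signalling through PI3K and AKT is low, and TCR or growth factor signals drive them out. In resting T cells Foxo1 sustains Klf2, the IL-7 receptor and lymph node homing receptors, and in Tregs it also sustains Foxp3 and Ctla4. TCF1 and LEF1 bind the same sites, partner with beta-catenin or Groucho corepressors, and mark naive and stem-like T cells. Bach2 competes with AP-1 factors and restrains the effector programme, and Satb1 folds chromatin around T cell genes during thymic development. The comparison of the IIKO with the WT group asked whether the level of these transcripts differed when peripheral Tregs had lost TCR contact with MHC class II.

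Array medians over all 34760 probe sets ran from 6.96 to 7.002 (log2) in the IIKO group and from 6.97 to 7.03 in the WT group. Over the 19937 genes tested, every IIKO median (7.04 to 7.10) lay below every WT median (7.11 to 7.14). No array repeated another (smallest SD of a difference between any pair, 0.185). Foxp3, the factor that defines Tregs, was at 10.66, 10.71, 10.81 and 10.53 in IIKO arrays 1 to 4, against 10.58, 10.68, 10.64 and 10.62 in the WT arrays. The sort markers Il2ra, which encodes CD25, and Cd4 differed by 0.17 and 0.13 (IIKO minus WT, log2) and did not pass the test described below (limma adjusted p = 0.211 and 0.289). The mean level of 8 Treg markers was higher in every IIKO array (11.72 to 11.75) than in every WT array (11.66 to 11.70). Myeloid and dendritic cell markers (12 genes) averaged 6.07 to 6.36 in the IIKO group, highest in IIKO array 3, and 6.12 to 6.30 in the WT group. Means of 7 B cell markers (6.27 to 6.33 in IIKO, 6.16 to 6.40 in WT) and of 8 thymocyte markers (6.12 to 6.35 in IIKO, 6.30 to 6.35 in WT) overlapped too. Markers of CD8 T and NK cells (9 genes) averaged 6.53 to 6.64 in the IIKO group and 6.53 to 6.82 in the WT group. WT arrays 1 to 3 (6.745, 6.82 and 6.81) lay above every IIKO array, and only WT array 4 lay below. Log2 array values have no zero, and the part of these cells in the results below was not tested.

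None of the 9 factors passed the test between the groups. The count was 0 of 9 by limma (a linear model fitted across all genes) with a Benjamini-Hochberg adjusted p under 0.05, a threshold that 0.286% of all 19937 genes passed (0.161% higher and 0.125% lower in IIKO). At an unadjusted limma p under 0.05, Klf6 and Satb1 had higher and Foxo1 and Klf3 lower means in the IIKO group, 4 of 9, against 17.3% of all genes (10.5% of all genes had groups that did not overlap). By direction, 2 of 9 were higher, against 5.27% of all genes, and 2 of 9 lower, against 12% of all genes. All 9 factors were among the brighter 9969 genes, of which 8.95% were higher and 7.42% lower by the same measure. In these brighter genes the groups lay apart with IIKO above WT for 493 and with IIKO below WT for 448. With arrays centred on their medians, 2 factors were higher and 0 lower, as the unadjusted limma p of Foxo1 was 0.0869 and that of Klf3 0.152. After a further quantile normalization 2 were higher and 2 lower, with an unadjusted limma p of 0.00716 for Foxo1 and 0.0224 for Klf3. At the same level 14.9% of all genes passed with median centring and 11.7% after the quantile normalization. The count of 4 was 1 without IIKO array 1, WT array 1 or WT array 2, and 2 when IIKO array 2 was left out. It was 5 without IIKO array 3 or WT array 3. In bulk RNA of sorted cells, fewer cells that express a gene and less RNA per cell cannot be told apart. The 9 differences, IIKO minus WT, ran from -0.19 to 0.21 on the log2 scale. Their median was -0.0873, beside a median of -0.038 over all genes and of 0.0114 over the brighter 9969 genes. Of the 9 differences 5 were negative (55.6%), against 62.9% over all genes and 46.4% over the brighter genes.

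**Figure D1:**
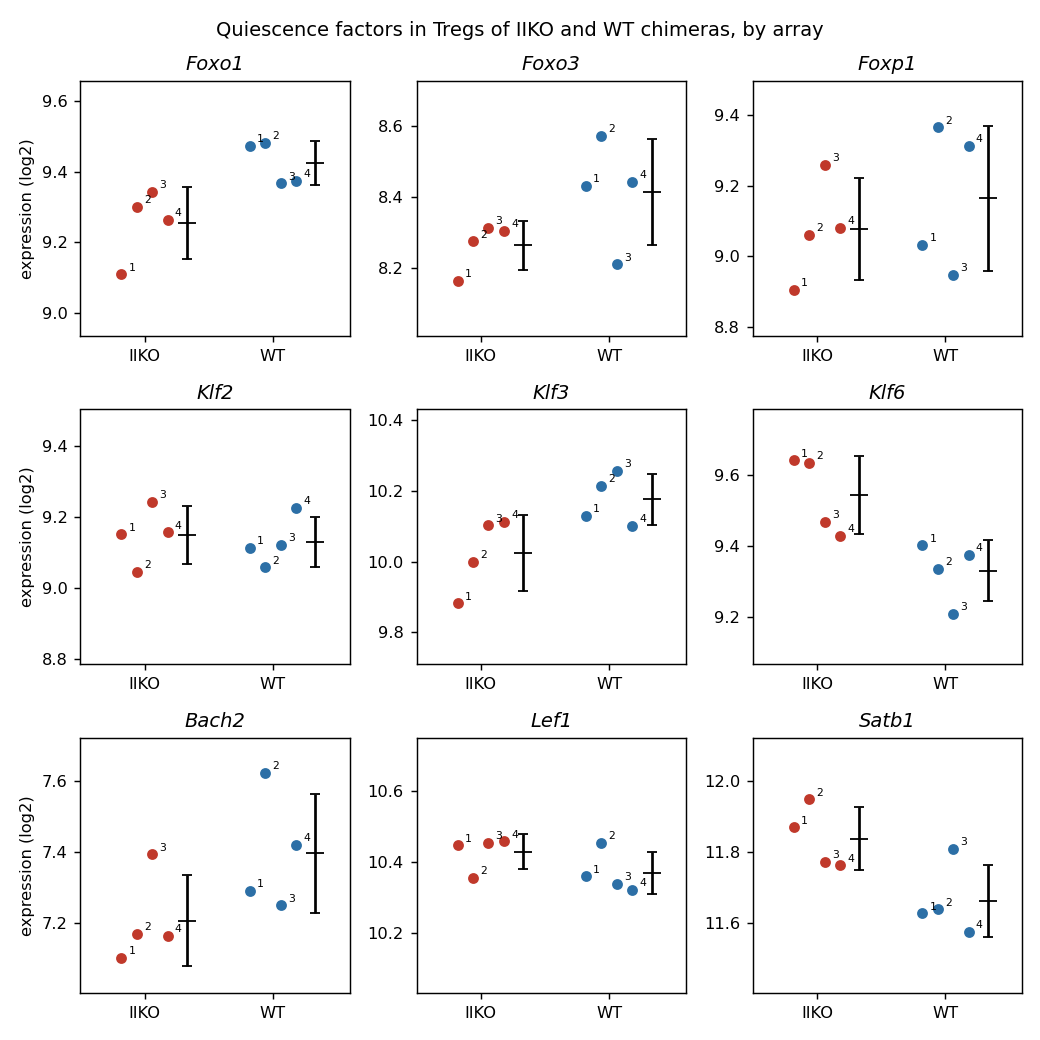
Expression (log2) of each factor on every array, IIKO left and WT right, with replicate numbers beside the points; the black bar is the mean with the SD of 4 arrays. Each panel spans the same log2 range around its own middle, and the IIKO and WT points are fully separate for Foxo1 and Klf6 and overlap for the other 7 genes.

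The promoters of Foxo1, Klf6, Klf3 and Satb1, the 4 factors with an unadjusted p under 0.05, are shown to compare the sites that members of these families could share. Each line gives the 250 bases before the RefSeq start (build GRCm38.p6), with matches to 4 motifs in capitals. The sequences lie at chr3:52268087-52268336 (plus strand), chr13:5861239-5861488 (plus), chr5:64803271-64803520 (plus) and chr17:51833291-51833540 (minus, the most upstream of 5 starts).
Foxo1: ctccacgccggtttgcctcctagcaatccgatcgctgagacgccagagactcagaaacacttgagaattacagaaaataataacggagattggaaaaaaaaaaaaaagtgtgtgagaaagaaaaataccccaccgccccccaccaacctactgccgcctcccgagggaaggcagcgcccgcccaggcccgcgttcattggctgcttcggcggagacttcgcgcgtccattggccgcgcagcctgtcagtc
Klf6: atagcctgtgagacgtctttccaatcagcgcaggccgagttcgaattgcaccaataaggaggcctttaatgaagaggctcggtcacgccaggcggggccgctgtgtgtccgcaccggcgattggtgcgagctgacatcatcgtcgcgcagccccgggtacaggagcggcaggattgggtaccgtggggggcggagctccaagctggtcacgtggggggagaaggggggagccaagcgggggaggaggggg
Klf3: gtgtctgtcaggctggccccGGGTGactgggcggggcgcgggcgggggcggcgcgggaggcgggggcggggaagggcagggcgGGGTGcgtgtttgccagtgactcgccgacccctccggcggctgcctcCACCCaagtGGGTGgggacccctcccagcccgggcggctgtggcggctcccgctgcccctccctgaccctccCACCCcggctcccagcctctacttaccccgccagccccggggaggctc
Satb1: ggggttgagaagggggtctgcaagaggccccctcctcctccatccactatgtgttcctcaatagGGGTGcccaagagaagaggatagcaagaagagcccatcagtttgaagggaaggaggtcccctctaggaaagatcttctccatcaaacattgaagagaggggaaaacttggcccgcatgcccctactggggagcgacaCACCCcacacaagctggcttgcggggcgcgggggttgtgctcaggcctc
The motifs, read on both strands, were TGTTTAC for FOXO, CACCC for Krüppel-like factors, CTTTGA for TCF and LEF, and TGCTGAG for BACH with MAF. All capitals in these lines are CACCC or its complement, 5 matches in Klf3 and 2 in Satb1, with no match to another motif beside or across them. RefSeq held a promoter for all 10 members. In the same window of their most upstream starts, 6 of the 10 held CACCC, against 52% of all 32851 promoters. The FOXO motif was in 0 of the 10 (3.17% of all), the TCF and LEF motif in 1, that of Bach2 (13.8% of all), and the BACH motif in 0 (6.21% of all). These counts describe letters in 1 short window, and no binding was measured here.

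Foxo1, the forkhead factor that sustains homing receptors and Foxp3, had a lower mean in the IIKO group. It was at 9.11, 9.30, 9.34 and 9.26 in IIKO arrays 1 to 4, against 9.47, 9.48, 9.37 and 9.37 in WT arrays 1 to 4. All 4 IIKO arrays lay below the lowest WT array, by as little as 0.02 for IIKO array 3 against WT array 3. Groups lay apart in this direction for 7.69% of all genes and for 448 of the brighter 9969. The difference was -0.17 ± 0.06 (log2, SE), 1.12-fold in size, and its 95% confidence interval of -0.31 to -0.03 reached 1.24-fold at its far end. It did not pass (limma adjusted p = 0.235), and the exact permutation test over the 70 labelled splits gave p = 0.0286, the smallest value this design allows (two-sided).

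Foxo3, its close relative that acts beside it in T cells, was at 8.16, 8.28, 8.31 and 8.31 in the IIKO arrays, against 8.43, 8.57, 8.21 and 8.44 in the WT arrays. The groups overlapped through WT array 3 alone, which lay among the IIKO arrays. The difference of -0.15 ± 0.08 (log2, SE; interval -0.32 to 0.02) did not pass (limma adjusted p = 0.344). It was -0.10 without WT array 2 and with arrays centred on their medians, and -0.22 without WT array 3. Foxp1, which keeps naive T cells quiescent by opposing Foxo1 at the Il7r gene, was at 8.91, 9.06, 9.26 and 9.08 in the IIKO arrays. In the WT arrays it was at 9.03, 9.36, 8.95 and 9.31. Both groups spread over a similar range, with an SD of 0.14 in IIKO and 0.20 in WT, and the difference of -0.09 ± 0.11 (SE) had an interval of -0.32 to 0.15 (limma adjusted p = 0.688). Its size moved with single arrays, to -0.03 when IIKO array 1 was left out, -0.02 for WT array 2 and -0.04 for WT array 4. Leaving out IIKO array 3 gave -0.15, and leaving out WT array 1 or WT array 3 gave -0.13 or -0.16. Of the other forkhead genes measured, Foxo4 differed by 0.03, Foxo6 by -0.03, Foxp4 by -0.03 and Foxp2 by -0.12 (log2). None of these 4 passed (limma adjusted p from 0.2835 to 0.85), and Foxp2, at a mean of 5.95 in IIKO and 6.07 in WT, lay near the lower quartile of gene levels (6.04).

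Enzymes and partners that set FOXO activity had 1 gene past the test. Pik3ap1, which encodes BCAP, an adaptor that brings PI3K to receptors, rose in the IIKO group. It was at 8.46, 8.52, 8.51 and 8.56 in the IIKO arrays, against 8.15, 7.78, 8.14 and 8.04 in the WT arrays. Every IIKO array was above every WT array, as for 2.83% of all genes and 493 of the brighter 9969. Its difference was 0.48 ± 0.08 (log2, SE; 1.40-fold; interval 0.30 to 0.66; limma adjusted p = 0.0477). The call was lost without any 1 array other than WT array 2 (limma adjusted p from 0.0760 to 0.135). It was also lost after a further quantile normalization (adjusted p = 0.0543) with eBayes' trended and robust variance (0.0564), with array weights (0.05) and with the replicate number as a block (0.124).

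The remaining 34 of the 35 genes of that list did not pass. Of the 35 differences 74.3% were positive, against 37.1% of all genes and 53.6% of the brighter genes, with a list median of 0.0405. At an unadjusted limma p under 0.05, 5 genes were higher and 0 lower (14.3%), against 17.3% of all genes in either direction. In the upward direction alone the share was 5.27% of all genes and 8.95% of the brighter genes. Sirt1, a deacetylase that acts on FOXO proteins, was at 9.33, 9.46, 9.45 and 9.41 in the IIKO arrays, against 9.16, 9.04, 9.11 and 9.33 in the WT arrays. WT array 4 lay above the lowest IIKO array, and the difference of 0.25 ± 0.07 (SE) did not pass (limma adjusted p = 0.167). The kinase genes Akt1 (0.05), Akt2 (0.13), Sgk1 (0.13) and Mtor (0.11) had small positive differences with limma adjusted p from 0.3985 to 0.759. A further 3 genes of the list were not analysed here.

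Another list was of homing and survival targets of FOXO factors and Klf2. It also holds Fbxo32, Irs2 and Bcl6, and was not limited to genes that these factors drive in T cells. Its balance therefore has no single expected direction. None of its 23 measured genes passed limma's test. Before adjustment 2 of these genes rose and 1 fell (13% at a limma p below 0.05, against 17.3% of all genes). Of their differences 15 were positive and 8 negative (65.2% positive, against 37.1% of all and 53.6% of the brighter genes), with a median of 0.0573. Il7r, the IL-7 receptor chain, was at 11.99, 12.11, 11.70 and 12.09 in the IIKO arrays, against 11.74, 11.37, 11.98 and 11.95 in the WT arrays. Its groups overlapped widely, and the difference of 0.21 ± 0.14 (SE) did not pass (limma adjusted p = 0.4325). Ccr7, the lymph node homing receptor, differed by 0.07 ± 0.07 and S1pr1, the exit receptor under Klf2 control, by 0.09 ± 0.07. Their intervals were -0.08 to 0.22 and -0.07 to 0.24, and neither passed (limma adjusted p = 0.5965 and 0.5256).

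The smallest p in the same list was that of Gadd45a, a growth arrest and DNA damage gene. It was at 8.67, 8.52, 8.55 and 8.43 in the IIKO arrays, against 8.32, 8.36, 8.32 and 8.12 in the WT arrays. The groups did not overlap, as for 2.83% of all genes and 493 of the brighter 9969 in this direction. The difference was 0.26 ± 0.07 (SE, limma adjusted p = 0.165). Bcl6, a repressor of effector fates and a gene of the TCF1 and LEF1 list as well, was at 6.99, 6.97, 7.25 and 7.26 in IIKO against 7.43, 7.41, 7.21 and 7.32 in WT. WT array 3 lay below IIKO arrays 3 and 4, and the difference of -0.22 ± 0.09 (SE) did not pass (adjusted p = 0.236).

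**Figure D2:**
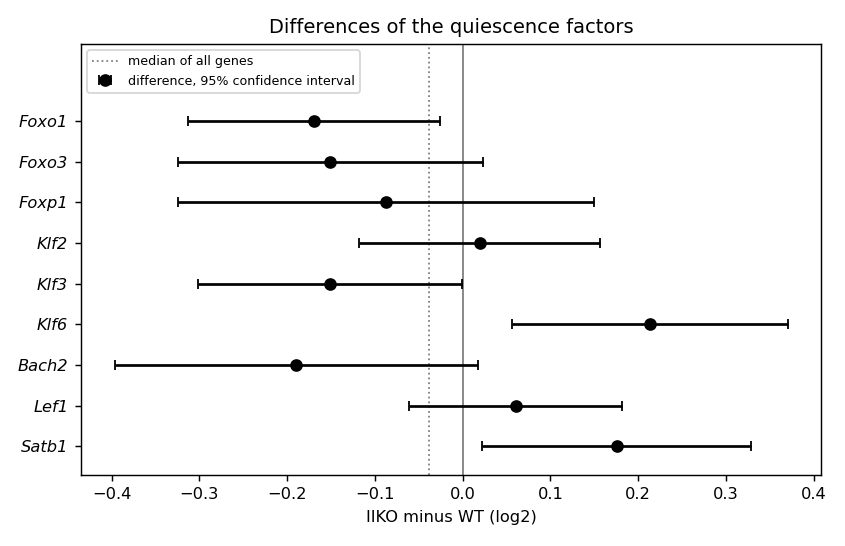
Difference of each factor, IIKO minus WT (log2), with its 95% confidence interval from limma; the solid line is 0 and the dotted line the median of all genes (-0.038). Intervals of Foxo1 and Klf3 lie below 0 and those of Klf6 and Satb1 above it, before any adjustment for the number of genes tested.

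Among the Krüppel-like factors the 3 members differed in sign. Klf2, which drives S1pr1 and keeps T cells recirculating, was at 9.15, 9.05, 9.24 and 9.16 in the IIKO arrays, against 9.11, 9.06, 9.12 and 9.23 in the WT arrays. The groups lay on top of each other, and the difference of 0.02 ± 0.06 (log2, SE) had an interval of -0.12 to 0.16. Changes of more than 1.11-fold upward or 1.08-fold downward lay outside it. The sign turned to -0.04 after a further quantile normalization, to -0.01 without IIKO array 3 and to -0.0045 without WT array 2. Leaving out IIKO array 2 or WT array 4 gave 0.05, and median centring 0.07.

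Klf3, a repressor that counters other Krüppel-like factors at shared CACCC sites, had a lower mean in the IIKO group. It was at 9.88, 10, 10.10 and 10.11 in the IIKO arrays, against 10.13, 10.21, 10.26 and 10.10 in the WT arrays. The groups met at WT array 4, which lay just below IIKO array 3 and IIKO array 4. The difference was -0.15 ± 0.07 (log2, SE; interval -0.30 to -0.0010), 1.11-fold in size, and did not pass (limma adjusted p = 0.2865; exact permutation p = 0.0857).

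Klf6, an early response gene of activated cells that represses growth in many tissues, had a higher mean in the IIKO group and the smallest p of the 9 genes. It was at 9.64, 9.63, 9.47 and 9.43 in the IIKO arrays, against 9.40, 9.34, 9.21 and 9.38 in the WT arrays. All 4 IIKO arrays lay above the highest WT array, by 0.03 at the closest pair. Groups lay apart in this direction for 2.83% of all genes and for 493 of the brighter 9969. The difference was 0.21 ± 0.07 (log2, SE; 1.16-fold; interval 0.06 to 0.37) and did not pass (limma adjusted p = 0.202; exact permutation p = 0.0286, the smallest possible). Under the 16 alternative settings it stayed between 0.16 and 0.26, with adjusted p from 0.137 to 0.375. Outside the members, Klf4, a brake on proliferation, differed by -0.19 ± 0.07 (adjusted p = 0.25) and Klf17 by -0.13 ± 0.05 (adjusted p = 0.236). Klf17 lay at 4.75 in IIKO and 4.88 in WT on average, below the lower quartile of gene levels. Of the 22 measured relatives of the FOXO, FOXP, KLF, TCF, BACH and SATB families, 0 passed limma's test and 4 were lower and 0 higher at an unadjusted p under 0.05. That is 18.2% of the relatives, near the 17.3% of all genes, of which 12% were lower. The difference of Klf4 was -0.12 without WT array 1, and that of Klf17 was -0.06 after a further quantile normalization and -0.08 with median centring.

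Bach2, which restrains effector genes in Tregs, was at 7.10, 7.17, 7.39 and 7.16 in the IIKO arrays, against 7.29, 7.62, 7.25 and 7.42 in the WT arrays. In the IIKO group 3 arrays lay below every WT array, and IIKO array 3 lay within the WT range. The difference of -0.19 ± 0.09 (log2, SE) had an interval of -0.40 to 0.02 and did not pass (limma adjusted p = 0.32; exact permutation p = 0.143). Without WT array 2 it was -0.11, and without IIKO array 3 it was -0.25.

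Effector genes that Bach2 or Foxo1 are known to restrain had 1 gene past the test, downward. The list was chosen with the results of several of its genes known, so its balance is not independent evidence. Of 23 measured genes 15 differences were positive (65.2%, against 37.1% of all and 53.6% of the brighter genes), with a median of 0.123, and 6 were higher and 1 lower at an unadjusted p under 0.05 (30.4%, against 17.3% of all genes). The gene that fell was Ccr9, a gut homing receptor, at 7.37, 7.29, 7.39 and 7.40 in IIKO against 8.52, 8.66, 8.59 and 7.94 in WT (limma adjusted p = 0.011). Ccr2, an inflammatory chemokine receptor, was at 11.54, 11.70, 10.80 and 10.96 in IIKO against 10.38, 10.14, 10.62 and 10.38 in WT. All IIKO arrays lay above all WT arrays, as for 2.83% of all genes and 493 of the brighter 9969. The gap was widest for IIKO arrays 1 and 2. The difference of 0.87 ± 0.19 (SE) did not pass (limma adjusted p = 0.116).

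Prdm1, which encodes Blimp-1 and is a direct target of Bach2 repression, was at 10.38, 10.36, 9.99 and 10.31 in the IIKO arrays, against 10.02, 9.80, 10.14 and 10.11 in the WT arrays. IIKO array 3, the IIKO array with the highest Bach2, had the lowest Prdm1 of its group, and WT array 2 stood in the same way in the WT group. These arrays were each the highest of their group for 5 of the 9 factors, and a link between Bach2 and Prdm1 was not tested. Prdm1 differed by 0.24 ± 0.10 (SE) and did not pass (limma adjusted p = 0.265). Among 11 measured partners and rivals of the BACH proteins, 0 passed limma's test. At an unadjusted limma p under 0.05, 1 was higher (9.09%, against 5.27% of all genes upward and 17.3% in either direction). That gene was Nfe2l2, which encodes NRF2, an activator that competes with BACH proteins for shared sites. It was at 9.32, 9.40, 9.18 and 9.11 in IIKO, against 8.9997, 8.88, 9.01 and 8.69 in WT. There was no overlap, as for 2.83% of all genes and 493 of the brighter 9969 in this direction (0.36 ± 0.09, SE, limma adjusted p = 0.154). Maff, a small MAF partner, differed by 0.29 ± 0.13 (adjusted p = 0.292), and by 0.15 without WT array 4.

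Lef1, the partner of TCF1, was close in both groups, at 10.45, 10.36, 10.45 and 10.46 in the IIKO arrays, against 10.36, 10.45, 10.34 and 10.32 in the WT arrays. IIKO array 2 lay with the WT arrays and WT array 2 with the IIKO arrays. The difference of 0.06 ± 0.05 (log2, SE) had an interval of -0.06 to 0.18, and changes of more than 1.13-fold upward or 1.04-fold downward lay outside it (limma adjusted p = 0.576). It was 0.11 with arrays centred on their medians and 0.03 after a further quantile normalization. Its pooled SD within groups, 0.0542, was the smallest of the 9 factors, beside a median of 0.104 over all genes. Of its relatives, Tcf7l1 differed by -0.20 ± 0.08 and Tcf7l2 by 0.14 ± 0.08 (adjusted p = 0.253 and 0.384).

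Genes associated with TCF1 and LEF1 had 10 positive and 10 negative differences, with 0 of 20 past limma's test. Before adjustment (p under 0.05), 20% of them were past this level, 2 upward and 2 downward, against 17.3% of all genes. Axin2, a textbook readout of beta-catenin with TCF factors, was at 8.38, 8.21, 8.06 and 8.15 in IIKO, against 8.03, 7.94, 7.86 and 7.93 in WT. Every IIKO array was above every WT array, by 0.02 at the closest pair. This held for 2.83% of all genes and 493 of the brighter 9969. The difference of 0.26 ± 0.07 (SE) did not pass (limma adjusted p = 0.174). Among 20 measured cofactors of beta-catenin, TCF1 and LEF1, which also hold Axin2, 0 passed, and 2 were higher and 1 lower at an unadjusted p under 0.05 (15%, against 17.3% of all genes). The lower one was Pygo1, a beta-catenin coactivator, at 6.56, 6.63, 6.38 and 6.56 in IIKO against 6.81, 6.69, 6.68 and 6.82 in WT. The difference was -0.22 ± 0.07 (SE, limma adjusted p = 0.191), and -0.14 after a further quantile normalization. Pygo1 was among the dimmer 9968 genes, of which 79.5% had negative differences. Ctnnb1, beta-catenin itself, differed by -0.04 ± 0.08 (interval -0.21 to 0.13).

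Satb1, the chromatin organiser of thymocytes and naive T cells, had a higher mean in the IIKO group. It was at 11.87, 11.95, 11.77 and 11.76 in the IIKO arrays, against 11.63, 11.64, 11.81 and 11.58 in the WT arrays. WT array 3 lay above IIKO arrays 3 and 4, and the other WT arrays lay below every IIKO array. The difference of 0.18 ± 0.07 (log2, SE; 1.13-fold; interval 0.02 to 0.33) did not pass (limma adjusted p = 0.242; exact permutation p = 0.0857). Without WT array 3 it was 0.22, and without IIKO array 2 it was 0.14. Satb1 was the 1 member on chromosome 17, which also carries the MHC.

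Quiescence genes outside these families, such as the antiproliferative Btg and Tob genes, had 0 of 24 past limma's test, with 1 higher and 1 lower at an unadjusted p under 0.05 (8.33%, against 17.3% of all genes). The higher one was Rb1, the retinoblastoma protein that blocks entry into S phase, at 10.12, 10.06, 10.05 and 10.07 in IIKO against 9.92, 9.93, 9.95 and 9.99 in WT. Its groups did not overlap, as for 2.83% of all genes and 493 of the brighter 9969 in this direction. They differed by 0.13 ± 0.05 (SE, limma adjusted p = 0.239), and by 0.09 after a further quantile normalization. The lower one was Vsir, which encodes the checkpoint receptor VISTA, at 8.38, 8.33, 8.31 and 8.29 in IIKO against 8.33, 8.51, 8.50 and 8.55 in WT (-0.14 ± 0.06; adjusted p = 0.263; -0.09 with median centring).

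**Figure D3:**
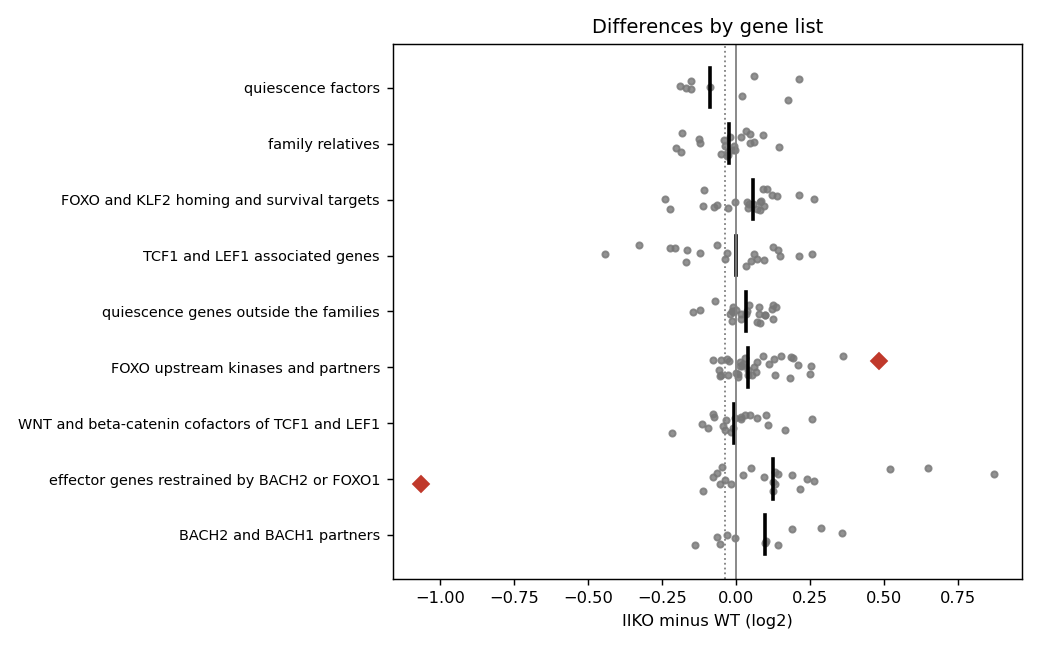
Difference, IIKO minus WT (log2), of every measured gene of each list; black bars are list medians, the dotted line is the median of all genes, and red diamonds are genes past limma's test (adjusted p under 0.05). Pik3ap1 (0.48) and Ccr9 (-1.06) are the 2 diamonds, and no quiescence factor is among them.

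Several factors had their high and low values on the same arrays. IIKO array 1 was the lowest IIKO array for 5 of the 9 factors (Foxo1, Foxo3, Foxp1, Klf3 and Bach2), and IIKO array 3 was the highest for 5. In the WT group, array 2 was the highest for 5 factors and array 3 the lowest for 5. Foxo3, Foxp1 and Bach2 had the same order of WT arrays, with array 2 at the top, then 4, then 1, then 3. Klf6 was highest in IIKO array 1, where 5 of the other factors were lowest. IIKO array 3 also had the highest mean of the myeloid and dendritic markers, and the part of that in its values was not tested.

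**Figure D4:**
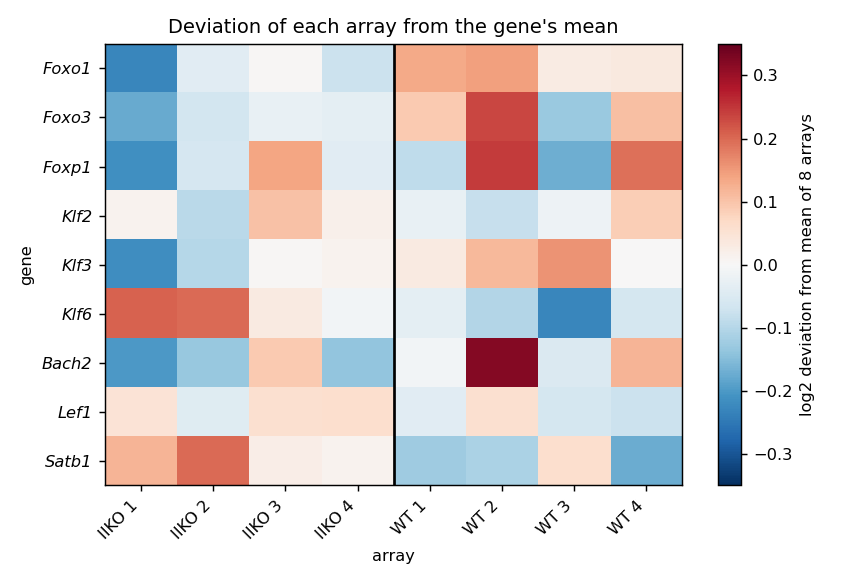
Deviation of each array from the mean of its gene over all 8 arrays (log2, colour), with IIKO arrays left of the line and WT arrays right of it. IIKO array 1 is low for Foxo1, Foxo3, Foxp1, Klf3 and Bach2 and high for Klf6, and WT array 2 is high for Foxo3, Foxp1 and Bach2.

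Likeness to single genes was described from deviations of the arrays from their group means, which share array, depth of hybridisation and normalization. Over the 8 arrays Klf6 was most like Grasp, Itih4 and Gm9888 (Pearson's r of 0.985, 0.979 and 0.979). Foxo1 was most like Ptchd4, Cdyl and Mir20a (0.988, 0.987 and 0.983), and Satb1 most like Blvra, Eif3h and Vti1a (0.978, 0.977 and 0.968). These are the highest of 19936 genes each, from 8 values with 6 degrees of freedom. None of the 9 neighbours passed the test between groups.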

How the data were processed

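The 8 Affymetrix arrays, hybridised with label made from 100 ng of total RNA each, were grouped as 4 IIKO and 4 WT by the sample titles. The deposited table holds log2 values for each probe set. The submitters' processing notes name affy and RMA, a method that corrects background, equalises quantiles between arrays and summarises probes; the version is not given in the sources used here. Of 34760 probe sets, 21640 had 1 symbol in the platform annotation and were used. For the 954 genes with several, that with the highest mean across the 8 arrays stood for the gene. This gave 19937 genes, with no filter on dim ones. The array annotation names no genome build, so array features have no coordinates here; chromosomes and promoters come from RefSeq (GRCm38.p6).

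The 19937 genes were fitted in limma 3.58.1 (R 4.3.3; lmFit, then eBayes; IIKO minus WT; 6 residual degrees of freedom), with Benjamini-Hochberg adjustment over all genes, a threshold of 0.05 and 95% confidence intervals. Single values were also compared by an exact two-sided permutation test over 70 splits. Gene lists (8 lists, 177 genes, 10 not measured) are described by counts and medians, with no set test. The members and lists were chosen with earlier results of these data known. Named are the 10 members, the 2 genes of each list with the smallest p, any gene past the threshold and Foxp3; other relatives, kinases, Il7r, Ccr7, S1pr1, Prdm1, Ctnnb1, Klf7 and Klf12 were named with their values known. Il2ra and Cd4 mark the sort. The fit was tested on simulated data with independent noise, where recovery was required only of changes larger than those of the members. That check does not show that changes of the members' size would be found.

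The sample titles number the replicates without naming a pairing, and the main fit did not pair them. Correlations of same-numbered deviations were 0.0449, -0.0147, -0.0679 and 0.22. Array medians over all probe sets rose with the replicate number in both groups (6.96 to 7.002 in IIKO, 6.97 to 7.03 in WT). Whether same-numbered arrays shared processing was not tested.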

Additional observations from a re-analysis of the deposited data

Results flagged for a closer look

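Lef1 in IIKO array 2 was at 10.36, apart from the other 3 IIKO arrays at 10.45 to 10.46, and lay within the WT range. Gadd45a in WT array 4 was at 8.12, below the other WT arrays at 8.32 to 8.36. Both were found by the gap of 1 array to its group, among 46 groups of 4 arrays examined, of which chance would flag about 1 in 20.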

How the results depend on the processing

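The members' count past the threshold was 0 under all 16 alternatives, and 8 of the 9 members kept their sign under each of them. Klf2 turned to -0.0353 after a further quantile normalization, to -0.0117 without IIKO array 3 and to -0.00445 without WT array 2 (leaving out each array gave -0.0117 to 0.0542); the cause was not tested. With arrays centred on their medians Foxo1 was at -0.12, Klf3 at -0.10, Klf6 at 0.26 and Satb1 at 0.23. After a further quantile normalization Foxo1 was at -0.22, Klf3 at -0.19, Klf6 at 0.16 and Satb1 at 0.17. Of all genes, 57 passed (56.1% higher in IIKO), 21 at a threshold of 0.01, 31 with the replicate number as a block, and 32 to 50 with each array left out; with median centring 81 passed, 71.6% of them higher. The list of FOXO enzymes and partners had 0 genes past the test at a threshold of 0.01, with the replicate block (Pik3ap1 adjusted p = 0.124), after quantile normalization, with trended robust variance and with array weights (0.05), and 0 to 1 with each array left out. The list of restrained effector genes had 0 at a threshold of 0.01. With the replicate block, Foxo1 had an adjusted p of 0.2838 and Klf6 of 0.2036; apart from Pik3ap1 the block changed no call of a named gene. Probe-level signals were not used here, so background could not be examined.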

Other observations

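The relatives Klf12 and Klf7, which are not among the 9 factors, varied more within groups than between them. Klf12 was at 6.67, 6.74, 5.63 and 5.87 in IIKO arrays 1 to 4, against 5.76, 5.75, 6.69 and 6.35 in WT arrays 1 to 4. Each group held 2 arrays above 6.3 and 2 below 5.9, and its pooled SD of 0.518 compares with a median of 0.104 over all genes. The difference between the groups was 0.09, with an interval of -0.54 to 0.72. Klf7 was at 8.74, 8.71, 8.86 and 8.40 in the IIKO arrays, against 8.68, 9.38, 8.67 and 8.71 in the WT arrays, and WT array 2, high for Foxo3, Foxp1 and Bach2, was also the high array here.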
